A study of Mus musculus with 4 samples.

Results

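The oxidative phosphorylation genes were the genes whose transcripts the authors annotated with the KEGG pathway of that name, mmu00190, in their mRNA expression values. There were 120 such genes among 21878, with 214 transcripts among 75959. The transcripts of a gene were summed, and fold changes were computed for the 110 genes that averaged 0.1 FPKM or more (FPKM, fragments scaled to transcript length and to the mapped fragments of a sample). The cells were C3H10T1/2, a mouse line with properties of mesenchymal stem cells, and stranded libraries of their total RNA were sequenced after removal of ribosomal RNA. The untreated group held 2 samples, replicates 1 and 2, with no culture time given. The 5-AZA group held 2 samples, replicates 101 and 102, exposed to 5-azacytidine at 20 µmol/L for 72 hours and kept for a further 21 days in fresh medium. 5-AZA is a cytidine analogue that inhibits DNA methylation, and both groups were the same line. Time in culture and treatment cannot be told apart in this design. The paper describes several doses and exposure times and the picking of myotube-like cells. Whether the sequenced cells had been picked is not given in the sources used here. The paper calls the samples of a group biological repeats without saying whether they came from separate treated cultures, so p-values measure the spread between these samples.

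Oxidative phosphorylation is the process by which mitochondria make ATP. Complexes I and II pass electrons from NADH and succinate to coenzyme Q, complex III passes them on to cytochrome c, and complex IV, cytochrome c oxidase, passes them to oxygen. Complexes I, III and IV pump protons across the inner membrane, and the ATP synthase uses the returning protons to make ATP. Several small subunits of complex IV exist as paralogs, with a form found in most tissues and a form of heart and skeletal muscle, testis or lung. Muscle fibres and brown adipocytes are rich in these complexes.

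The pathway label covered more than the respiratory chain. Of the 120 genes, 36 were assigned to complex I, 4 to complex II, 9 to complex III, 17 to complex IV, 15 to the ATP synthase and 2 to the Ndufa4 family, which together made 83 genes. The remaining genes were 4 assembly factors of complex IV, 24 subunits or accessory proteins of the V-ATPase, which acidifies lysosomes, 3 proton/potassium ATPases of the cell membrane, 3 pyrophosphatases and 3 predicted genes (Gm3244, Gm3873 and Gm4943). Subunits encoded by mitochondrial DNA were not analysed here. The 10 genes under the limit on low values were Atp12a, Atp4a, Atp4b, Atp6v1b1, Atp6v1e2, Atp6v1g3, Cox6b2, Cox8c, Gm3873 and Gm4943, and 5 genes were listed at 0 in all samples. Just inside the limit was Atp6v0a4, with a mean of 0.112 FPKM, and just outside it was Atp6v1e2, with a mean of 0.0628 FPKM that came from 5-AZA replicate 102 alone. Cox7a1 and Cox7b2 passed the limit only through their values in the 5-AZA samples, so counts over the 110 genes are given as descriptions.

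The FPKM values of all genes summed to 328410 to 361664 per sample, and the read depth behind a value is unknown. The oxidative phosphorylation genes held 3.64% and 3.82% of that sum in untreated replicates 1 and 2 and 4.17% and 4.43% in 5-AZA replicates 101 and 102. Between 102 and 107 members reached 1 FPKM in a sample. For the labelled cell type, the summed level of 10 mesenchymal markers was 3261 and 3317 FPKM in the untreated samples and 2108 and 2358 FPKM in the 5-AZA samples. Vim alone held most of this sum, at 2268 and 2406 FPKM in the untreated samples and 1178 and 1380 FPKM in the 5-AZA samples. Of the 9 that were tested 4 were higher and 3 lower in the 5-AZA samples, and 6 had a positive and 3 a negative log2 fold change. Nt5e and Thy1, surface markers of mesenchymal cells, were absent or low in the untreated samples, with Nt5e listed at 0 in both and Thy1 at 0.578 and 0.785 FPKM. Eng was at 1.72 and 1.52 FPKM there. The other markers, Pdgfra, Pdgfrb, Cd44, Ly6a, Col1a1, Col1a2 and Vim, were at 19.98 FPKM or more in both untreated samples. Of 9 blood and endothelial markers, 4 were listed at 0 in all samples and 3 were tested. Their summed level was 1.24 and 1.495 FPKM in the untreated samples and 3.06 and 4.11 FPKM in the 5-AZA samples. Cd68, a macrophage marker, rose 2.27-fold (adjusted p = 0.0191 in limma), and Cdh5, an endothelial marker, was called higher after passing the limit on low values only through the 5-AZA samples. The part of such cells in the results was not tested.

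In 5-AZA-treated cells, 26 of the 110 genes tested were higher than in untreated cells at an adjusted p below 0.05 (limma with Benjamini-Hochberg adjustment over all 13199 genes tested), which was 23.6%. Over all genes tested the share was 18.6%. A single member was lower, Cox7a2l, which was 0.909% of the members against 5.93% of all genes. With a change of more than 2-fold also required, 7 members were higher, or 6.36%, against 13.1% of all genes. No member was lower by more than 2-fold in limma, against 1.32% of all genes, and 1 member passed that size at an unadjusted p below 0.05. Both 5-AZA samples lay above both untreated samples for 57 members, or 51.8%, against 36.8% of all genes. Both lay below for 9 members, or 8.18%, against 25.4% of all genes.

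The median log2 fold change of the 110 members was 0.22, beside 0.05 over all genes tested, and 90 members had a positive value and 20 a negative one. That was 81.8% positive, against 55.2% of all genes tested. The count of calls depended on how the samples were scaled. Without further scaling 26 members were higher and 1 lower, so that 96.3% of the called members were higher. After centring on the sample medians the counts were 17 and 7 (70.8% higher), after quantile normalization 33 and 8 (80.5%), and after scaling to the same sum of FPKM 35 and 5 (87.5%). The median over all genes moved from 0.05 to -0.06, -0.12 and 0.02 in these 3 scalings, and the median over the members stayed positive, at 0.11, 0.15 and 0.19. The share of members with a positive value was then 69.1%, 70.0% and 80.0%, against 43.7%, 36.5% and 52.7% of all genes.

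**Figure D1:**
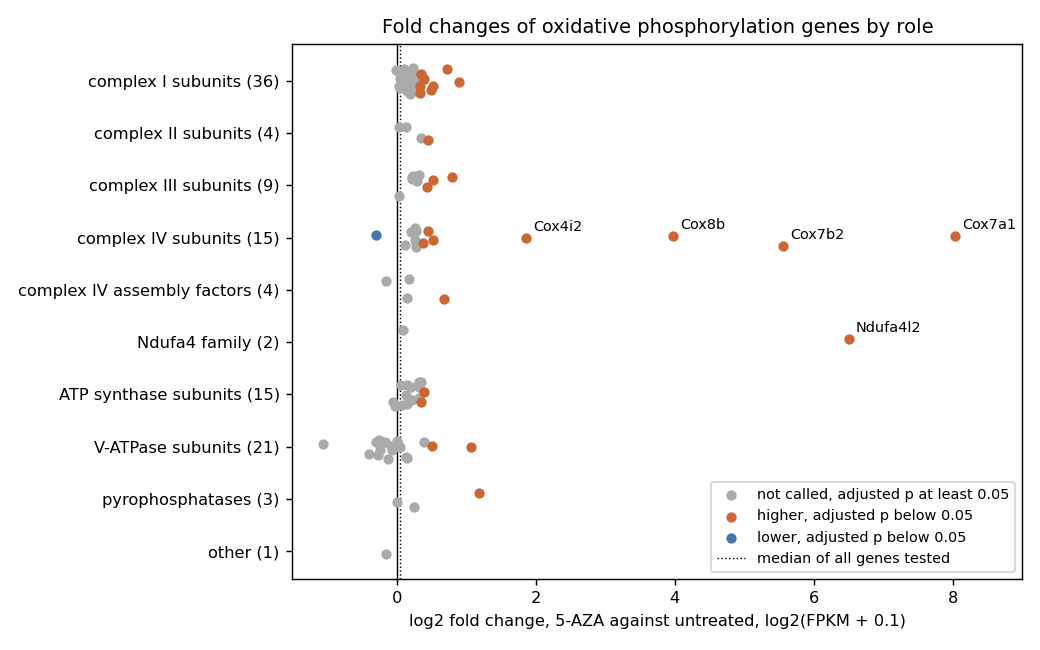
Log2 fold change of each of the 110 oxidative phosphorylation genes tested, 5-AZA against untreated, on the log2(FPKM + 0.1) scale, in rows by role with the number of genes in brackets. Orange points were called higher and the blue point, Cox7a2l, lower at an adjusted p below 0.05. The dotted line is the median of all genes tested (0.05), and 5 genes of complex IV and of the Ndufa4 family lie to the right of all others, between 1.86 and 8.03.

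The largest changes were in complex IV, the terminal oxidase, where the paralogs known from muscle and testis appeared beside the broadly expressed forms. Cox7a1, the heart and skeletal muscle form of subunit 7a, was listed at 0 in both untreated samples and at 24.6 and 27.5 FPKM in 5-AZA replicates 101 and 102. Its log2 fold change was 8.03 ± 0.22 (SE) with an adjusted p of 1.8e-07 (limma), and because it was listed at 0 this value depends on the pseudocount and is not a fold. It entered the test only through its 5-AZA values, and with no filter on low values its adjusted p was 0.0143 (limma). Over the alternative settings it ranged from 4.76 to 11.3, and the call held in each of them. Cox7a2, the form found in most tissues, was at 117 and 129 FPKM in the untreated samples and 148 and 148 FPKM in the 5-AZA samples, and did not pass the test (adjusted p = 0.082 in limma). The muscle form thus held 0% and 0% of the summed FPKM of the pair in the untreated samples and 14.3% and 15.7% in the 5-AZA samples.

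Cox8b, the heart and skeletal muscle form of subunit 8, was already measured in the untreated cells. It was at 5.56 and 3.47 FPKM there and at 56.4 and 88.8 FPKM in the 5-AZA samples, with no overlap. The mean rose from 4.51 ± 1.48 to 72.6 ± 22.9 FPKM (SD, n = 2 each), which was 16.1-fold, with a log2 fold change of 3.98 ± 0.25 (SE) and an adjusted p of 9.3e-06 (limma). Its broad counterpart Cox8a, at 349, 356, 419 and 551 FPKM in untreated replicates 1 and 2 and 5-AZA replicates 101 and 102, was higher by 1.38-fold (adjusted p = 0.0433 in limma). The share of Cox8b in the pair was 1.57% and 0.964% in the untreated samples and 11.9% and 13.9% in the 5-AZA samples.

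Cox7b2 is the testis form of subunit 7b. It was listed at 0.127 and 0 FPKM in the untreated samples and at 6.63 and 7.41 FPKM in the 5-AZA samples, with a log2 fold change of 5.56 ± 0.38 (SE) and an adjusted p of 1.5e-05 (limma), or 0.0295 with no filter on low values. It made up 3.62% and 3.86% of the summed FPKM of Cox7b2 and Cox7b in the 5-AZA samples and at most 0.0777% in the untreated samples. Cox7b itself lay between 164 and 185 FPKM in all 4 samples and did not pass the test (adjusted p = 0.388 in limma). The other testis forms among the members, Cox6b2 and Cox8c, were listed at 0 in all 4 samples.

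Cox4i2, the lung form of subunit 4, stayed low. Its values were 0.0972 and 0.386 FPKM in the untreated samples and 1.42 and 0.725 FPKM in the 5-AZA samples. Its log2 fold change was 1.86 ± 0.48 (SE) with an adjusted p of 0.023 (limma), and 2 of the 9 processing alternatives kept the call. This SE was larger than those of Cox7a1, Cox8b and Cox7b2. Cox4i1, the broad form, stood at 408, 412, 520 and 669 FPKM in the same order of samples and was higher by 1.45-fold (adjusted p = 0.0194 in limma). Cox4i2 never exceeded 0.272% of the summed FPKM of the 2 genes.

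Ndufa4l2 showed the second largest change among the members. It is a paralog of Ndufa4, a protein first assigned to complex I and later found with complex IV, and is known as a gene induced by hypoxia. It was at 0.28 and 0.0778 FPKM in the untreated samples and at 21.6 and 25.3 FPKM in the 5-AZA samples. The log2 fold change was 6.50 ± 0.33 (SE) with an adjusted p of 3.3e-06 (limma). Ndufa4 was at 370, 396, 400 and 416 FPKM and did not pass the test (adjusted p = 0.562 in limma), and the share of Ndufa4l2 in the pair went from at most 0.0755% to 5.13% and 5.74%.

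**Figure D2:**
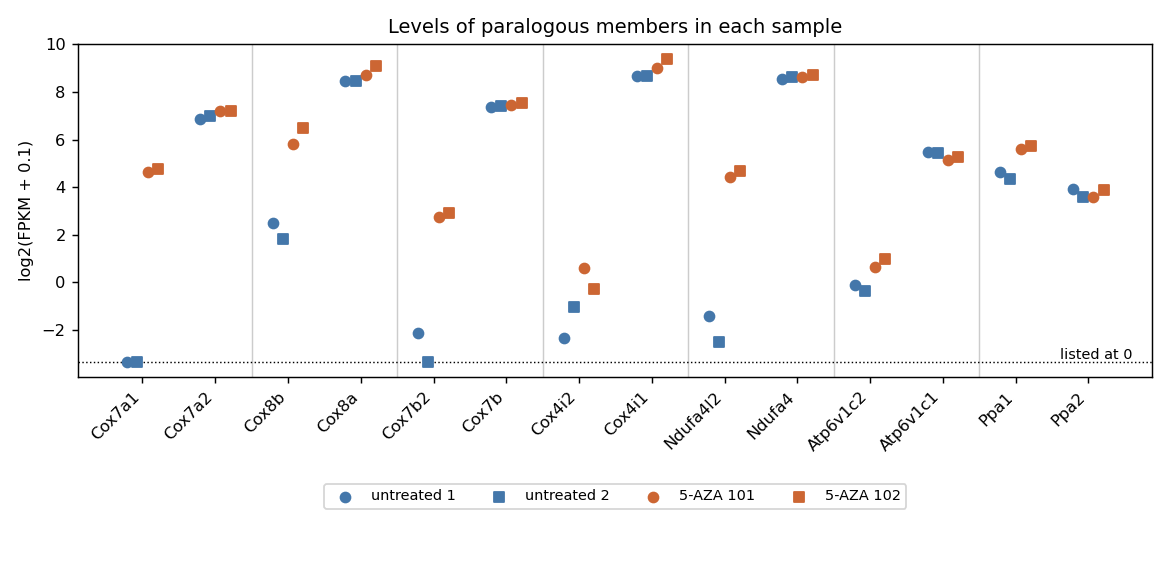
Level of 7 pairs of paralogous members in each of the 4 samples, as log2(FPKM + 0.1), with the untreated samples in blue and the 5-AZA samples in orange. Cox7a1, Cox8b, Cox7b2 and Ndufa4l2 lie far higher in both 5-AZA samples, while their broad counterparts differ by less than 1 on this scale, and the dotted line marks genes listed at 0.

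Shares within a pair do not depend on a scaling factor of the sample. Of 13 pairs compared, 7 had a larger share of the restricted form in both 5-AZA samples, and 1, Atp6v0d2, had a smaller one. The exact permutation test, two-sided, gave p = 0.333 for each of these 8 pairs, which is the smallest value that 2 samples against 2 can give. The differences between group means were 15.0 percentage points for Cox7a1, 11.6 for Cox8b, 5.39 for Ndufa4l2, 3.70 for Cox7b2, 2.70 for Atp6v1c2 and 0.132 for Cox4i2. The largest shift beside Cox7a1 was in a V-ATPase pair: Tcirg1 held 32.0% and 27.8% of its sum with Atp6v0a1 in the untreated samples and 45.6% and 43.3% in the 5-AZA samples.

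**Figure D3:**
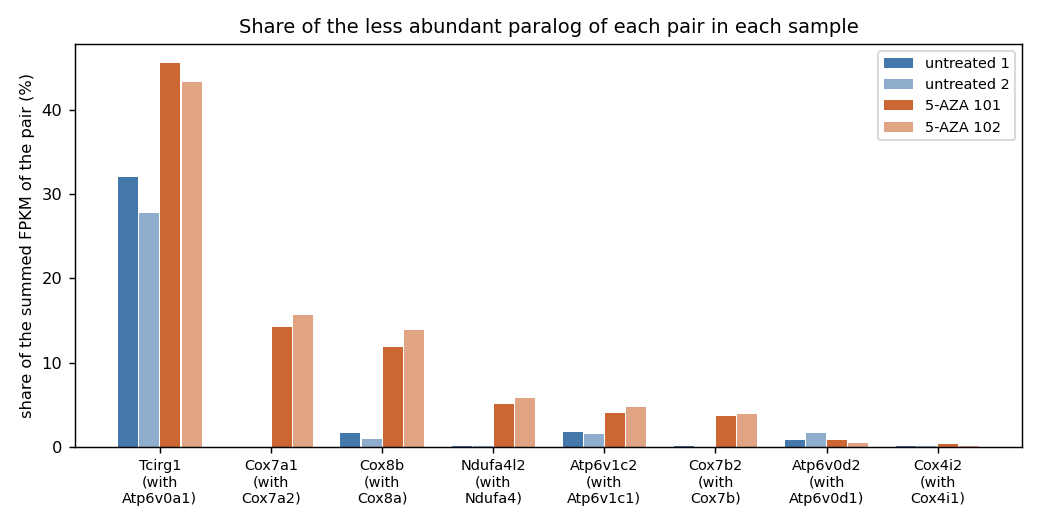
Share of the restricted paralog in the summed FPKM of each of 8 pairs, in percent, with 1 bar per sample and no error bars. The orange bars of the 5-AZA samples exceed the blue bars of the untreated samples for every pair shown except Atp6v0d2, and the bars of Cox4i2 stay under 0.3%.

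The muscle forms moved together with markers of other cell types. The summed level of 12 skeletal muscle markers was 1.86 and 1.52 FPKM in the untreated samples and 834 and 1277 FPKM in the 5-AZA samples. Of these 7 passed the limit on low values only through the 5-AZA samples, so that their direction was fixed by the limit, and the other 5 were all higher. Of 9 adipocyte markers 8 were tested, 1 of them let in by its 5-AZA values alone, and the other 7 were all higher, with sums of 48.4 and 32.8 FPKM in the untreated samples and 1137 and 1555 FPKM in the 5-AZA samples. The 6 brown adipocyte markers summed to 0.461 and 0.431 FPKM against 5.11 and 5.07 FPKM. Of the 3 that were tested 2 passed the limit only through the 5-AZA samples, the remaining one, Ppargc1a, was higher, and Ucp1, the thermogenic uncoupling protein that defines these cells, was listed at 0 in 3 samples and at 0.023 FPKM in 5-AZA replicate 102. The part of each of these cell types in the changes of Cox7a1, Cox8b and the other members was not tested. In bulk RNA, more cells of a type and more RNA per cell cannot be told apart.

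The upstream sequences of the 3 complex IV paralogs with the largest changes are shown because 5-AZA acts on DNA methylation, which sits on cytosines followed by guanine (CpG). They are the 250 bases before the annotated start of each gene, from RefSeq on GRCm38.p6, read 5′ to 3′ on the gene's strand, with each CpG in capitals. The broad counterparts Cox7a2 and Cox8a follow for comparison. Methylation itself was not measured here.
Cox7a1, chr7:30183921-30184170, plus strand: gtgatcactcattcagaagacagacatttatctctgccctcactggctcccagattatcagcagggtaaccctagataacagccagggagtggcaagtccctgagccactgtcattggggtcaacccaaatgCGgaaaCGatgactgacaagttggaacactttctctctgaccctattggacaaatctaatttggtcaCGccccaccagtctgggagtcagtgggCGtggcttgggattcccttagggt
Cox7a2, chr9:79759854-79760103, minus strand: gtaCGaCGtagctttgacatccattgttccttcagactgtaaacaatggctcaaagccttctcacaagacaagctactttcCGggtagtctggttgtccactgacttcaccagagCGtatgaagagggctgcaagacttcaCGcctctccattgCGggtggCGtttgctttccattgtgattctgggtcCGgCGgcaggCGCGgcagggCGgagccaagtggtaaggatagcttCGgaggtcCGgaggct
Cox8b, chr7:140900447-140900696, minus strand: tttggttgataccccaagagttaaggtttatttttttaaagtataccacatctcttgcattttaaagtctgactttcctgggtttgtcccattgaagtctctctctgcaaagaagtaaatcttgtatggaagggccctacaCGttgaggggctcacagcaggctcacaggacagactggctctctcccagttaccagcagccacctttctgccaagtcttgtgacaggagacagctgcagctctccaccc
Cox8a, chr19:7217617-7217866, minus strand: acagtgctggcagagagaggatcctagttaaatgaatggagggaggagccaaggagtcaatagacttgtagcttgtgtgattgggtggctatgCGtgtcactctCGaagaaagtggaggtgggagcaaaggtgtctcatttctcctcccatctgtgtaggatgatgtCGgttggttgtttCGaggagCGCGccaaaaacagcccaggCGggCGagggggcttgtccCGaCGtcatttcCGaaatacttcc
Cox7b2, chr5:71548206-71548455, minus strand: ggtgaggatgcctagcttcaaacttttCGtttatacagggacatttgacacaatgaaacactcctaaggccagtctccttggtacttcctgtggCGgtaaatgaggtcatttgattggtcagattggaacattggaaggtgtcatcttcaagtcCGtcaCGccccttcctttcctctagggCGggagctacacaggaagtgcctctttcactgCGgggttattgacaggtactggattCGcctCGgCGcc

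These 250 bases held 4 CpGs for Cox7a1 and 1 for Cox8b, against 14 for Cox7a2 and 11 for Cox8a, and Cox7b2 held 9. Over the whole window of 300 bases, which adds the first 50 bases of the gene, the counts were 7 for Cox7a1, 2 for Cox8b, 10 for Cox7b2, 20 for Cox7a2 and 19 for Cox8a. RefSeq windows were matched for 86 of the members tested, 96 windows in all, with a median of 19 CpGs, beside 20 over 12789 windows of all genes tested. Among the member windows 1.04% held fewer CpGs than that of Cox8b, 4.17% fewer than that of Cox7a1 and 7.29% fewer than that of Cox7b2. Among the windows of all genes tested these shares were larger, at 2.71%, 17.1% and 24.0% in the same order. A low count did not mark these genes alone, since the window of Cox7b, which did not pass the test, held 5, and those of Atp6v1c2 and Ppa1 held 22 and 38. Ndufa4l2 and Cox4i2 had no entry.

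Short letter patterns of known regulators of mitochondrial genes were searched for on both strands of the same windows. The core of the NRF1 site, GCGCATGCG, occurred in 9.38% of the member windows against 3.54% of all windows. The YY1 pattern AAGATGGCG occurred in 9.38% against 2.83%, and the ETS pattern CCGGAAGT bound by GABP in 9.38% against 7.62%. In all, 25 member windows, or 26.0%, held at least 1 of these 3 patterns, against 13.2% of all windows. Windows were matched for 5 of the members that were higher by more than 2-fold, and none of the 5 held these patterns, a number too small to set beside that share. The pattern TCAAGGTCA of the estrogen-related receptors was in 2.08% of the member windows against 0.242% of all, in Atp5g3 and Sdhd. The E-box CAGCTG, read by MyoD-type factors, was in 6.25% of the member windows against 15.8% of all. Cox8b held 2 of them, with the first base 19 bases before the start and 16 bases after it. Members called higher were 3 of 9 with the NRF1 pattern, 2 of 9 with the ETS pattern, 1 of 9 with the YY1 pattern, 2 of 2 with the estrogen-related receptor pattern and 1 of 6 with the E-box, beside 23.6% of the members tested. None of the patterns contains another, and a match describes the sequence only.

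Complex I, the entry point for NADH, had 36 members, all tested. Of these 8 rose and none fell in limma, beside 18.6% and 5.93% of all genes. The log2 fold changes were positive for 35 of the 36, with a median of 0.23, and for 29, 32 and 35 after centring, quantile normalization and scaling to the same sum. The summed level was 2799 and 2862 FPKM in the untreated samples and 3124 and 3594 FPKM in the 5-AZA samples, without overlap. Ndufv1, which carries the flavin that accepts electrons from NADH, was at 28.9 and 30.8 FPKM in the untreated samples and 43.5 and 55.5 FPKM in the 5-AZA samples. It was 1.66-fold higher (log2 fold change 0.72 ± 0.13 SE, adjusted p = 0.0039 in limma). Ndufb9, an accessory subunit of the membrane arm, was at 213 and 210 against 284 and 324 FPKM (log2 fold change 0.52, adjusted p = 0.0062 in limma). The other subunits called were Ndufa5 (0.49), Ndufa12 (0.39), Ndufb11 (0.35), Ndufb6 (0.34) and Ndufs4 (0.34), all changes on the log2 scale.

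The largest rise in complex I was that of Ndufab1, the mitochondrial acyl carrier protein, which rested on 1 predicted transcript. The gene sum was 27.1 and 23.6 FPKM in the untreated samples and 43.8 and 51.2 FPKM in the 5-AZA samples (log2 fold change 0.90, adjusted p = 0.00074 in limma). The predicted transcript held 21.5, 20.7, 41.8 and 49.1 FPKM of these. The curated transcript went the other way, from 5.64 and 2.90 FPKM to 2.01 and 2.02 FPKM, and with curated transcripts alone the log2 fold change was -0.97. The most abundant subunit was Ndufb4, at 256, 287, 301 and 292 FPKM, with a log2 fold change of 0.13 that did not pass the test (adjusted p = 0.413 in limma). Ndufc2 had the only negative value, -0.01.

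Complex II, succinate dehydrogenase, had 4 members, and 1 of them rose, beside 18.6% of all genes. Sdhd, a membrane anchor, was at 69.7 and 60.9 FPKM in the untreated samples and 82.2 and 96.0 FPKM in the 5-AZA samples (log2 fold change 0.45, adjusted p = 0.0231 in limma). Sdhb, the iron-sulphur subunit, had 44.5, 44.9, 40.2 and 52.2 FPKM, and its groups overlapped.

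Complex III, which hands electrons to cytochrome c, had 9 members, of which 3 rose, beside 18.6% of all genes. Its sums were 1092 and 1108 FPKM in the untreated samples and 1241 and 1526 FPKM in the 5-AZA samples. Cyc1, cytochrome c1, was at 29.3 and 31.6 FPKM in the untreated samples and 44.7 and 62.8 FPKM in the 5-AZA samples. It was 1.77-fold higher, with a log2 fold change of 0.80 ± 0.15 (SE) and an adjusted p of 0.0057 (limma). Uqcr11, the most abundant subunit, went from 287 and 316 FPKM to 367 and 508 FPKM (0.52 on the log2 scale), and Uqcrc1, a core protein, from 45.01 and 40.7 FPKM to 51.8 and 65.5 FPKM (0.44). Uqcrh, the hinge protein, had the smallest value, 0.03 on the log2 scale, and overlapping groups.

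Of the 15 complex IV subunits tested, 7 rose and 1 fell, against 18.6% and 5.93% of all genes. Beside the 4 restricted paralogs and their partners Cox8a and Cox4i1, Cox6a1 was called higher. Cox6a1 was at 159, 169, 192 and 237 FPKM (log2 fold change 0.38), with an adjusted p of 0.0499 (limma) that was just inside the threshold. Cox6c, the most abundant member of the whole pathway, was at 669 and 723 FPKM in the untreated samples and 789 and 908 FPKM in the 5-AZA samples. Its groups did not overlap, and its log2 fold change of 0.28 did not pass the test (adjusted p = 0.115 in limma). Cox7c had 558, 569, 680 and 687 FPKM, with the same log2 fold change of 0.28 and an adjusted p of 0.0764 (limma).

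The single member that fell was Cox7a2l, a relative of subunit 7a that joins complexes III and IV into supercomplexes. It was at 220 and 214 FPKM in the untreated samples and 172 and 180 FPKM in the 5-AZA samples, so that both treated values lay below both untreated ones. The log2 fold change was -0.30 ± 0.09 (SE) with an adjusted p of 0.0465 (limma), and the call was lost in each fit with 1 sample left out, in which the log2 fold change lay between -0.34 and -0.27. All other complex IV subunits tested had positive values. Among the 4 assembly factors, Cox17, the copper chaperone of the oxidase, rose from 60.6 and 66.5 FPKM to 90.3 and 116 FPKM (log2 fold change 0.69, adjusted p = 0.0051 in limma). Cox10, Cox11 and Cox15, which serve heme synthesis and copper delivery, lay between 1.61 and 5.11 FPKM and did not pass the test.

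The ATP synthase had 15 members, all tested, and 2 of them rose, beside 18.6% of all genes. Atp5a1, the alpha subunit of the catalytic head, was at 191, 178, 229 and 255 FPKM (log2 fold change 0.39, adjusted p = 0.0234 in limma). Atp5g3, 1 of 3 genes for the same membrane ring subunit, was at 208, 206, 246 and 284 FPKM (0.35, adjusted p = 0.0404 in limma). The other ring genes, Atp5g1 and Atp5g2, had log2 fold changes of 0.08 and -0.05 and overlapping groups. Atp5b, the most abundant subunit, was at 455, 440, 513 and 630 FPKM and did not pass the test (0.35, adjusted p = 0.0732 in limma).

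**Figure D4:**
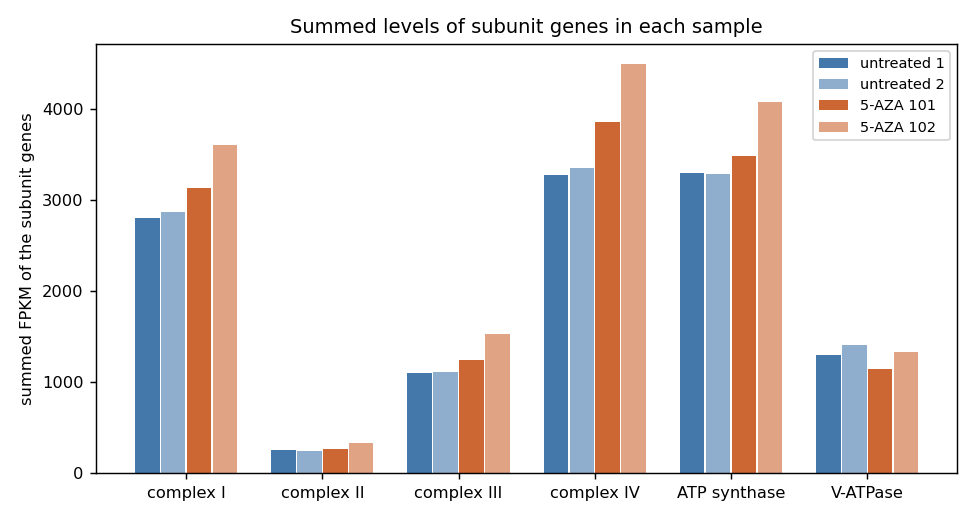
Summed FPKM of the subunit genes of each complex, with 1 bar per sample and no error bars. For complexes I to IV and the ATP synthase both 5-AZA bars exceed both untreated bars, and the bar of 5-AZA replicate 102 exceeds that of replicate 101, while the V-ATPase bars of the groups overlap (1298 and 1406 against 1137 and 1326 FPKM).

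Over complexes I to IV, the Ndufa4 family and the ATP synthase, 81 of 83 genes were tested. Of these 22 rose and 1 fell, beside 18.6% and 5.93% of all genes. The log2 fold change was positive for 77 of the 81, or 95.1%, against 55.2% of all genes, with a median of 0.25. After centring, quantile normalization and scaling to the same sum 81.5%, 87.7% and 95.1% were positive, against 43.7%, 36.5% and 52.7% of all genes. Without further scaling both 5-AZA samples lay above both untreated samples for 51 of the 81, against 36.8% of all genes. The summed level of the 83 genes was 11080 and 11230 FPKM in the untreated samples and 12390 and 14440 FPKM in the 5-AZA samples. Without the members that were higher by more than 2-fold, the sums were 11080, 11220, 12270 and 14290 FPKM and the median was 0.24.

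The V-ATPase genes had log2 fold changes on both sides of 0. Of 24 genes 21 were tested, and 2 rose and none fell, beside 18.6% and 5.93% of all genes. There were 8 positive and 13 negative values, with a median of -0.06. Both 5-AZA samples lay below both untreated samples for 8 of the 21 and above for 3, against 25.4% and 36.8% of all genes. The genes that rose were Atp6v1c2, which was low, and Tcirg1. Atp6v1c2, a subunit C of restricted tissues, was at 0.818 and 0.68 FPKM in the untreated samples and 1.49 and 1.88 FPKM in the 5-AZA samples (log2 fold change 1.07 ± 0.26 SE, adjusted p = 0.016 in limma). With curated transcripts alone its log2 fold change was 0.37 and the adjusted p 0.828 (limma). Tcirg1, the subunit a form of osteoclasts, was at 9.46, 8.11, 11.9 and 13.1 FPKM (0.51, adjusted p = 0.0264 in limma).

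None of the 13 V-ATPase genes with a negative value passed the test in limma, and 5 of them had an unadjusted p below 0.05. Atp6v0a1 was at 20.1 and 21.1 FPKM in the untreated samples and 14.2 and 17.2 FPKM in the 5-AZA samples (log2 fold change -0.39, adjusted p = 0.0547 in limma). Atp6v0e, the small membrane subunit e, was at 221, 238, 168 and 206 FPKM (-0.30, adjusted p = 0.103 in limma). Atp6v0d2, an osteoclast form of subunit d, had the most negative value, -1.06, at 0.563, 1.16, 0.402 and 0.285 FPKM (adjusted p = 0.0767 in limma). Atp6v1g1, the most abundant, was at 210, 245, 179 and 203 FPKM (-0.25, adjusted p = 0.158 in limma). The scaling decided these calls: after centring, quantile normalization and scaling to the same sum, 6, 7 and 4 V-ATPase genes were called lower, Atp6v0a1, Atp6v0d1 and Atp6v1c1 in each of them, and the median was -0.17, -0.18 and -0.08. Under the same scalings 4, 9 and 11 complex I genes, 4, 9 and 8 complex IV genes and 1, 6 and 5 ATP synthase genes were called higher, and the median of each of these complexes stayed positive.

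Ppa1, the cytosolic pyrophosphatase that splits the pyrophosphate released by biosynthesis, was the remaining member over 2-fold. It was at 24.9 and 20.3 FPKM in the untreated samples and 49.3 and 53.0 FPKM in the 5-AZA samples, without overlap. The mean rose 2.27-fold, with a log2 fold change of 1.18 ± 0.12 (SE) and an adjusted p of 0.00017 (limma). Its mitochondrial counterpart Ppa2 was at 15.0, 11.9, 11.98 and 14.9 FPKM, with a log2 fold change of 0.00. Gm3244, the predicted gene that was tested, ranged from 19.3 to 48.5 FPKM within the 5-AZA group.

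The 5-AZA replicates differed from each other in the same direction as the groups. Replicate 102 lay above replicate 101 for 103 of the 110 members, and for 74.6% of all genes tested. Untreated replicate 1 lay above replicate 2 for 50 members. Leaving out a sample left its group with 1 sample, whose spread was taken from the other group and from limma's trend over all genes, so a call lost in such a fit does not show a smaller change. Without replicate 102 the median log2 fold change of the members fell to 0.08 and 1 member was called higher, Cox7a1. Without replicate 101 the median was 0.33 and 5 members were called higher, and without untreated replicates 1 and 2 the counts were 13 and 12. With each sample left out in turn, 67 members kept a positive and 11 a negative log2 fold change. Of the 27 calls, 5 held in all 9 processing alternatives (Cox7a1, Cox7b2, Cox8b, Ndufa4l2 and Ppa1), and 11 were lost in every fit with a sample left out.

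Genes that build or feed the respiratory chain were examined in 8 lists, whose counts stand beside 18.6% of all genes called higher and 5.93% called lower. Of 13 assembly factors of complex I tested, 1 rose, Ndufaf3, and the median log2 fold change was 0.22. Of 30 assembly factors of the other complexes 2 rose, Cox20 and Tmem70, with a median of 0.08. Pet117, an assembly factor of complex IV, had the largest value there, 3.61, but stood at 13.1 FPKM in 5-AZA replicate 101 and under 1 FPKM in the other samples, and did not pass the test. Of 13 genes of supercomplex and crista organization 2 rose, Mtx2 and Higd1a. The lowest log2 fold changes, with these lists in the same order, were -0.271 for Nubpl, -0.44 for Cmc1 and -0.066 for Mtx1. None of them was called.

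Among 8 regulators of mitochondrial biogenesis tested, 2 rose. Esrra, a nuclear receptor that drives respiratory chain genes, was at 6.18 and 6.39 FPKM in the untreated samples and 10.1 and 10.8 FPKM in the 5-AZA samples (log2 fold change 0.73, adjusted p = 0.0042 in limma). Ppargc1a, its coactivator, was at 0.419 and 0.424 against 0.775 and 1.05 FPKM (0.94, adjusted p = 0.046 in limma). The lowest value among the regulators was that of Yy1, -0.093, which was not called. None of 12 genes of mitochondrial DNA maintenance and transcription was called by limma, and 2 had an unadjusted p below 0.05, against 35.5% of all genes. Ssbp1 had the highest log2 fold change of the 12, 0.295, and Mterf1a the lowest, -0.465.

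Of 13 genes for electron carriers and coenzyme Q synthesis 4 were called higher, 1 of which, Cyct, passed the limit on low values only through the 5-AZA samples. Cycs, cytochrome c, went from 21.4 and 18.5 FPKM to 31.8 and 35.8 FPKM (0.76 on the log2 scale). Cyct, its testis form, was listed at 0 in both untreated samples and at 0.403 and 0.844 FPKM in the 5-AZA samples. Of 7 ADP/ATP carriers and uncoupling proteins tested, Slc25a31, Ucp2 and Ucp3 passed that limit in the same way, and none of the other 4 was called by limma or had an unadjusted p below 0.05. Slc25a31, the testis form of the ADP/ATP carrier, was listed at 0 in both untreated samples and at 4.29 and 5.17 FPKM in the 5-AZA samples. The main carrier Slc25a4 was at 455, 444, 418 and 487 FPKM and did not pass the test. Ucp2 went from 0 and 0.0767 FPKM to 3.74 and 6.14 FPKM. The lowest log2 fold changes were -0.532 for Coq4 among the electron carrier and coenzyme Q genes and -0.057 for Atpif1 in the carrier list. Neither was called.

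Of 17 genes of the tricarboxylic acid cycle and pyruvate entry 6 rose and 1 fell, with a median of 0.34. Idh3a, of the NAD-linked isocitrate dehydrogenase, went from 12.4 and 10.9 FPKM to 19.8 and 23.2 FPKM (0.88 on the log2 scale, adjusted p = 0.0014 in limma). Idh2, the NADP-linked mitochondrial enzyme, fell from 82.2 and 84.3 FPKM to 52.7 and 56.3 FPKM, by 0.61 on the log2 scale (adjusted p = 0.0017 in limma).

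Circular RNAs from these genes were few. Of 4295 circRNAs, 10 came from 5 member genes, Atp6v1h, Atp6v1d, Ndufv2, Ppa2 and Atp6v0d1, and 7 of the 10 were seen in a single sample. Their levels are given in RPM, back-spliced reads scaled to the reads of a sample. Both circRNAs seen in all 4 samples came from Atp6v1h, and the first, circRNA_0001, had 0.0215 and 0.0321 RPM in the untreated samples and 0.0538 and 0.0532 RPM in the 5-AZA samples (log2 fold change 0.65, adjusted p = 0.533 in limma). The second, circRNA_0002, had 0.0538, 0.0428, 0.0431 and 0.0639 RPM in the same order (0.09, adjusted p = 0.9997 in limma). The 3 that could be tested gave 0 calls and none at an unadjusted p below 0.05. Over all 1360 circRNAs tested limma also gave 0 calls, or 0%, with 251 at an unadjusted p below 0.05.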

How the data were processed

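RNA-seq of 2 untreated and 2 5-AZA samples was analysed. The authors deposited FPKM values per RefSeq transcript for mRNAs and RPM values per circRNA. Per the labels, reads were trimmed with Trimmomatic, and HISAT2, Bowtie2 2.2.9 and eXpress 1.5.1 are named without their roles. The labels name mm9, but 85.8% of 2131 circRNA host genes lay inside GRCm38.p6 bounds, so no coordinates of circRNAs are printed. Deposited GO and KEGG terms served only to choose members. lncRNA values were not used here, and 1 further gene of the pathway is not reported here.

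Transcripts were summed per gene in Python 3.11.15, and log2(FPKM + 0.1) was fitted with limma 3.58.1 (lmFit, eBayes with trend) in R 4.3.3 for genes with a mean of at least 0.1 FPKM, with Benjamini-Hochberg adjustment over all 13199. The pseudocount makes changes of low genes look smaller. For circRNAs the pseudocount was 0.0213 RPM. Shares within 13 paralog pairs were compared by exact permutation tests. In 10 sets of simulated data, the fit on 13199 genes for 5-AZA against untreated recovered 0% of log2 changes of 0.5, 17.2% of 1, 61% of 2 and 85.2% of 4, and 5.44% of calls were false. Each simulated set changed far fewer genes than the 3232 called in the data, which makes the adjustment for multiple tests stricter. The rates of recovery and of false calls therefore describe the simulated setting and not the real fit. Members near a log2 change of 0.5 could still be missed, and a gene that was not called has not been shown to be unchanged. FPKM keeps no read counts, so depth is unknown.

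The genes named are those over 2-fold, the largest rise and fall and the most abundant member of each role, paralog pairs with a gene at 1 FPKM or more, and called members. Members of the related lists are named where called over 2-fold or where they rose or fell most, and further ones were chosen after their values were seen. Members, lists, motifs and tests were chosen with earlier results of these data known. Promoter windows came from RefSeq (GRCm38.p6). Alternatives covered pseudocounts, filters, scalings, eBayes without trend, curated transcripts and leaving out each sample.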

Additional observations from a re-analysis of the deposited data

How the results depend on the processing

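With 2 samples per group, no permutation of samples reaches a p below 0.05, and calls rest on limma's estimate of spread over all genes. Many subunit genes have near-identical pseudogene copies, and how the quantification divided reads among them was not tested. Read depth is unknown. No paired analysis was possible because the groups share no replicate numbers. A count test of circRNAs was not run. The cause of each difference given here was not tested. Against 26 members called higher, 7 were called with no filter on low values, where limma's spread was estimated over 17510 genes. The count was 17 after centring on the sample medians, 8 with eBayes without trend and 12 with curated transcripts only. Against 1 called lower, 0 were called with a pseudocount of 0.01 FPKM, no filter, eBayes without trend or curated transcripts, 7 after centring, 8 after quantile normalization and 5 after scaling to the same sum. Over 2-fold, 3 were lower after quantile normalization. Over all genes 3232 were called, 1799 with no filter and 1932 with curated transcripts. With a sample left out, 1 to 13 members were called higher and 0 to 1 lower, 1 to 6 higher and 0 to 1 lower over 2-fold, and 918 to 2427 of all genes. No circRNA of a member gene was called with detection in all 4 samples required or with a sample left out.

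The values that changed sign all belonged to genes that were not called, with Ndufab1 as the exception, which went to -0.972 with curated transcripts. The genes listed here are only a part of those that changed sign. Positive values went from 90 of 110 members to 76 after centring, 77 after quantile normalization and 88 after scaling to the same sum. With each sample left out in turn, 67 members kept a positive and 11 a negative value. After centring, the log2 fold change was -0.103 for Atp6v0a4, -0.087 for Atp6v1b2, -0.06 for Atp6v1e1, -0.016 for Ndufa4, -0.071 for Sdhb and -0.078 for Uqcrh. After quantile normalization it was -1.174 for Atp6v0a4, -0.065 for Atp6v1b2, -0.012 for Atp6v1e1, -0.011 for Ndufa4, -0.035 for Sdhb and -0.008 for Uqcrh. After scaling to the same sum it was -0.014 for Atp6v0a4 and -0.003 for Atp6v1b2, and with a pseudocount of 0.01 it was -0.011 for Atp6v0a4. With a sample left out, the values ran from -0.171 to 0.076 for Atp5g2, -0.244 to 0.252 for Atp6v0a4, -0.08 to 0.119 for Atp6v1b2, -0.074 to 0.168 for Atp6v1e1, -0.306 to 0.178 for Atp6v1g2, -0.811 to 0.513 for Gm3244, -0.049 to 0.032 for Ndufc2, -0.163 to 0.162 for Ppa2, -0.151 to 0.223 for Sdhb and -0.098 to 0.156 for Uqcrh. The share of Atp6v1g2 in its pair differed by 0.0312 percentage points, by -0.153 with curated transcripts, and by -0.0412 to 0.104 with a sample left out.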
